A study of Mus musculus with 4 samples.

Results

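Sec and Vps genes are the mouse genes named after the yeast secretion (Sec) and vacuolar protein sorting (Vps) genes. They were taken here by symbol, as every gene whose name is Sec or Vps followed by a number. The RefSeq gene table held 64 such protein-coding genes, 29 Sec and 35 Vps, and 12 of them had at least 1 peak in the list of NAT10 binding sites, with 22 of its 4172 distinct peaks. NAT10, the enzyme that places N4-acetylcytidine on RNA, was mapped by eCLIP, in which UV light fixes a protein to the RNA it touches and the RNA pulled down with an antibody is sequenced. The cells were 32D, a mouse line that the labels place in bone marrow, wild type in genotype and cultured with FBS and interleukin-3. The groups were 2 immunoprecipitates made with a NAT10 antibody and 2 inputs with no antibody, all from the same line and treatment, and nothing in the labels shows whether they came from separate cultures.

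The authors summarised the 4 libraries as 1 list, giving each peak a -log10 p and a fold of immunoprecipitate over input, read as log2. No value per library was given, so none of the values below carries an error between replicates and none could be tested. Nothing under a -log10 p of 3.07 or a log2 fold of 3.00 was listed. A gene without a row is therefore without a listed peak, which does not show that it was unbound or not transcribed. The depth behind a peak is unknown. Of the myeloid marker genes 4 of 10 had a peak (Csf2rb, Srgn, Ptprc and Gata2), while Mpo, Spi1, Csf1r, Itgam, Cebpa and Kit had none. Of 6 markers of other cells none had a peak, beside 7.33% of all protein-coding genes. With so few genes, the counts of the 2 marker sets were not tested. These are binding sites and not expression levels, so the cell label could not be checked by level.

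Newly made secretory and membrane proteins enter the endoplasmic reticulum through the Sec61 channel and lose their signal peptide there. The COPII coat, built from Sec23, Sec24, Sec13 and Sec31, then packs them into vesicles bound for the Golgi. Vps proteins act later, at endosomes and lysosomes. ESCRT complexes sort ubiquitin-tagged receptors into vesicles inside the endosome, retromer returns cargo to the Golgi or the cell surface, and the HOPS, CORVET, GARP and EARP complexes tether vesicles before fusion. In blood cells this route influences how long cytokine receptors stay at the surface.

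A listed peak was found on 12 of 64 Sec and Vps genes (18.8%, exact 95% interval 10.1 to 30.5), against 7.33% of all 21900 protein-coding genes. The interval covers counting error only, and genes transcribed in 32D cells could not be picked out as a background, since no expression values were used here. The bound genes were 7 of 29 Sec genes (24.1%) and 5 of 35 Vps genes (14.3%). Most had little: 8 of the 12 had a single peak, and so did 46.7% of the other genes in the list. Sec and Vps genes had a median of 1 peak per gene and other genes with a peak had a median of 2.

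**Figure D1:**
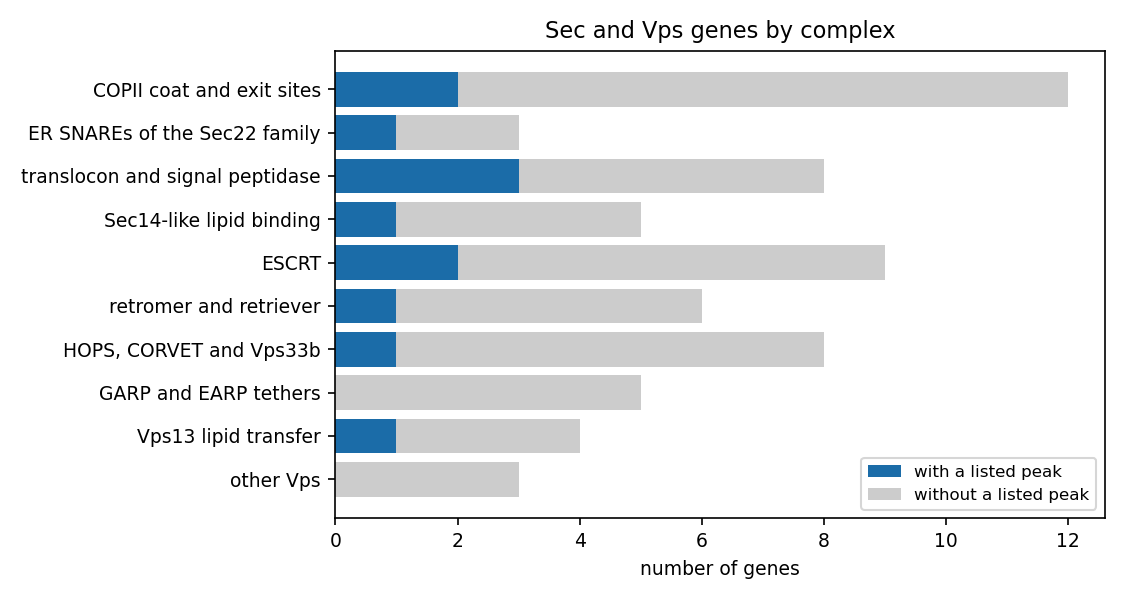
Number of Sec and Vps genes in each complex or group (63 genes in 10 groups; Sec1 stands in none). Dark bars are genes with a listed NAT10 peak and grey bars are genes without one; 8 of the 10 groups had a bound member, and the GARP and EARP tethers and the remaining Vps genes had none.

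Bound members were scattered over the complexes, with 1 to 3 genes in each of 8 groups. The translocon and signal peptidase group had the highest share, 3 of 8 genes, and the COPII group had 2 of 12. ESCRT had 2 of 9, retromer and retriever 1 of 6, and GARP and EARP none of 5. The 7 genes of HOPS and CORVET subunits had none, and Vps33b, which was set beside them in the grouping and works with another partner in mammals, had 3 peaks. With so few genes in a group, no order among these shares was tested.

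The strength of the peaks differed widely between members. Vps37a and Vps33b carried 9 of the 22 peaks, with log2 folds of 5.81 to 8.60. The 13 peaks on the other 10 genes ran from 4.02 to 6.32, and 10 of the 13 lay at or below 4.60, the median of the whole list. The median log2 fold was 4.95 over all 22 Sec and Vps peaks and 4.60 over the 4150 other peaks. Without Vps37a it was 4.44, and without Vps37a and Vps33b 4.36, both under the list's median. These genes were left out after seeing the data, for their high folds, so a fall was fixed beforehand. The other peaks were not trimmed in the same way. The side on which the family lay rested on its most enriched genes. Taking the strongest peak of each gene, the median was 4.50 for the 12 Sec and Vps genes and 4.69 for the 1614 other genes.

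**Figure D2:**
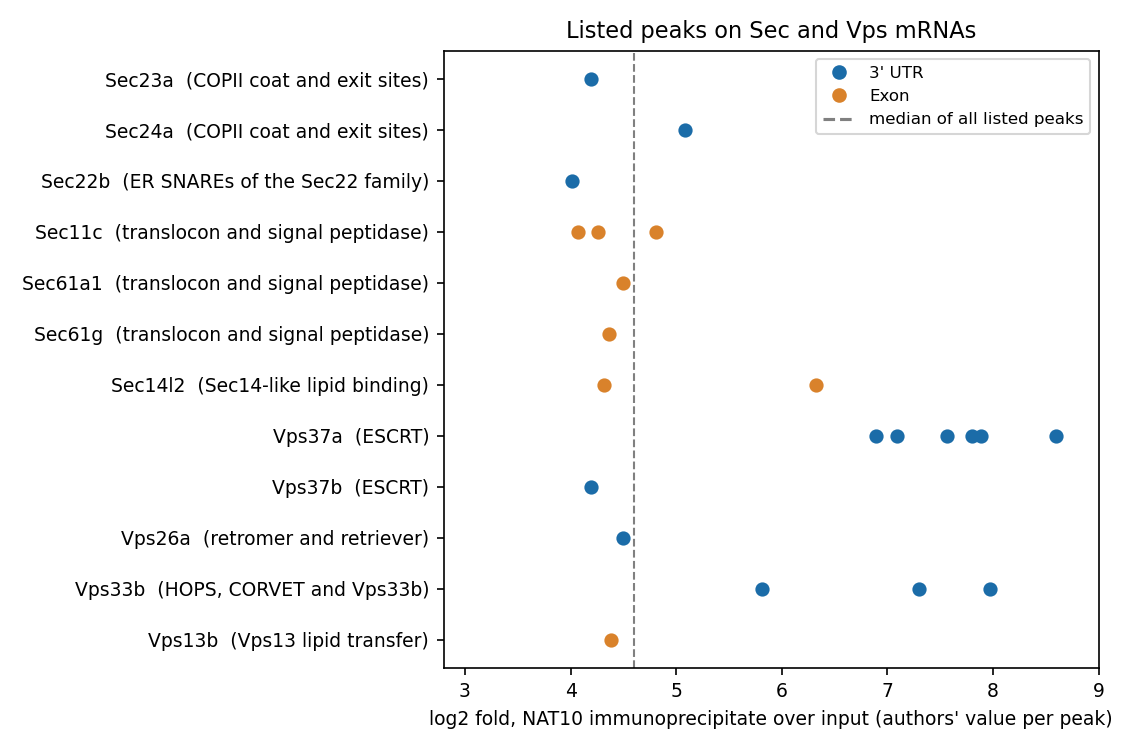
Log2 fold over input (horizontal axis, the authors' value) of each of the 22 peaks, with 1 line per gene and its group in brackets. Blue points are 3' UTR peaks, orange points are exon peaks and the dashed line is the list's median of 4.60; the points of Vps37a and Vps33b lie at 5.81 and above, and of the others 3 points lie right of the line.

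Vps37a, a subunit of ESCRT-I, which gathers ubiquitin-tagged cargo on endosomes, was the most enriched. All 6 of its peaks were in the 3' UTR on the plus strand of chromosome 8 (GRCm39), within 487 nt. In order along the transcript, their log2 folds were 6.90, 7.09, 7.80, 8.60, 7.57 and 7.89. The strongest spanned 105 nt, from 40999853 to 40999957, with a 387-fold enrichment and a -log10 p of 93.1. It ranked 50 among all 4172 peaks, and by its strongest peak Vps37a ranked 15 among 1626 gene symbols. The first 5 peaks touched end to end, and a gap of 48 nt came before the sixth, from 41000075 to 41000178. Joined, the 6 peaks made 2 regions. Runs of 5 or more touching peaks were found on 22 genes of the list. In the GRCm38 table the Vps37a gene overlapped 2 other protein-coding genes, Cnot7 and Mtmr7, and no other member with a peak overlapped a protein-coding gene. The peaks stand under Vps37a alone in the list, and whether reads of a neighbour enter them was not tested.

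The paralogues of Vps37a fill the same place in ESCRT-I. Vps37b had 1 peak in its 3' UTR, 145 nt wide, on the minus strand of chromosome 5 from 124143986 to 124144130, with a log2 fold of 4.19. That is 4.41 log2 units under the strongest Vps37a peak. Vps37c and Vps37d had no listed peak. The other ESCRT genes of the family, the ESCRT-I subunit Vps28, the ESCRT-II subunits Vps25 and Vps36, and the ATPases Vps4a and Vps4b, which take ESCRT-III apart, had none either.

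Vps33b encodes an SM protein, the class that guides SNARE assembly at fusion; it is a relative of the HOPS subunit Vps33a. Its 3 peaks lay in the 3' UTR on the plus strand of chromosome 7 and covered 208 of 210 nt. The first, from 79941077 to 79941119, had a log2 fold of 5.81. The second, from 79941122 to 79941215, had 7.97, which is 251-fold, with a -log10 p of 60.2 and rank 83 in the list. The third, from 79941216 to 79941286, had 7.30. By its strongest peak Vps33b ranked 26 among the gene symbols. Vps33a had no listed peak, and neither had the HOPS and CORVET genes Vps8, Vps11, Vps16, Vps18, Vps39 and Vps41.

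**Figure D3:**
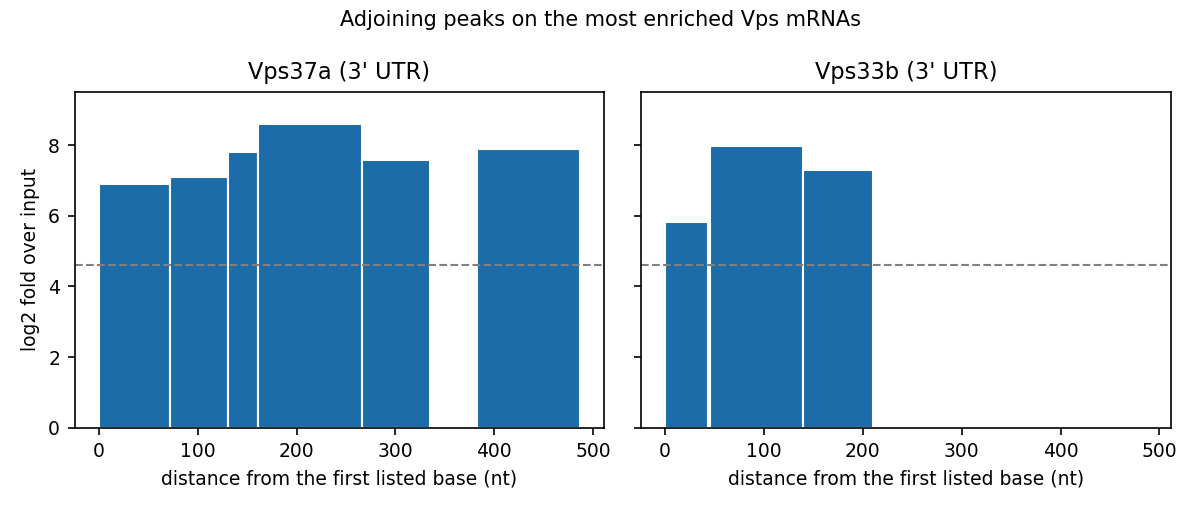
Log2 fold (vertical axis, from 0) along the bound stretches of Vps37a and Vps33b, against distance in nt from the first listed base of each gene. Each bar is 1 listed peak, as wide as the peak, and the dashed line is the list's median of 4.60; the 6 Vps37a peaks fill 439 of 487 nt and the 3 Vps33b peaks 208 of 210 nt.

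Other genes in the list were packed in the same way. Of 512 genes with 3 or more peaks, 72 had all of them within 500 nt, among them Vps37a and Vps33b. Sec11c, the third member with 3 or more peaks, had its 3 spread over 1949 nt.

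Among the genes of entry into the endoplasmic reticulum, all 5 peaks lay in the authors' exon class. Sec11c, a catalytic subunit of signal peptidase, had 3 on the plus strand of chromosome 18. Their log2 folds were 4.07 at 65945814 to 65945871, 4.81 at 65946651 to 65946749 and 4.26 at 65947652 to 65947762, with gaps of 779 and 902 nt. Whether introns lie between them was not looked up, as no annotation of this build was used here. Its paralogue Sec11a had no peak.

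Sec61a1, the pore-forming subunit of the Sec61 channel, had 1 exon peak of 60 nt on the minus strand of chromosome 6, from 88492494 to 88492553, and both its log2 fold and its -log10 p were 4.50. Sec61g, the small gamma subunit, had 1 exon peak of 104 nt on the minus strand of chromosome 11, from 16454736 to 16454839. Its log2 fold was 4.36 and its -log10 p 3.68. Thus 2 of the 3 subunits of the channel had a peak, each under the list's median fold of 4.60. The beta subunit gene Sec61b, the paralogue Sec61a2 and the genes of the accessory factors Sec62 and Sec63 had none.

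The COPII genes with a peak were a single inner coat pair. Sec24a, which selects cargo, had a 3' UTR peak of 95 nt with a log2 fold of 5.08 on the minus strand of chromosome 11, from 51583776 to 51583870. Sec23a, its partner and the activator of the Sar1 GTPase, had a 3' UTR peak of 134 nt with a log2 fold of 4.19 on the minus strand of chromosome 12, from 59005779 to 59005912. No peak was listed for their paralogues Sec23b, Sec24b, Sec24c and Sec24d, for the outer coat genes Sec13, Sec31a and Sec31b, for the exit site scaffolds Sec16a and Sec16b or for Sec23ip.

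Sec22b, a SNARE of transport between endoplasmic reticulum and Golgi, had a single peak. Its log2 fold was 4.02 over 142 nt of the 3' UTR on the plus strand of chromosome 3, from 97829241 to 97829382. Its -log10 p of 7.11 was higher than that of 61.3% of all peaks, while its fold was higher than that of 13.8%. Sec22a and Sec22c had no peak.

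Vps26a, a subunit of retromer, had a 3' UTR peak of 138 nt with a log2 fold of 4.50 on the minus strand of chromosome 10, from 62291683 to 62291820. The genes of the other retromer subunits, Vps35 and Vps29, the paralogue Vps26b, and the retriever genes Vps35l and Vps26c had none. Vps13b, one of the bridge-like lipid transfer proteins, had an exon peak of 93 nt with a log2 fold of 4.38 on the plus strand of chromosome 15, from 35860644 to 35860736. It was the longest gene of the family, with a genomic span of 560 kb in GRCm38, and Vps13a, Vps13c and Vps13d had no peak.

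Sec14l2, a lipid-binding protein of the Sec14 type, had 2 exon peaks on the minus strand of chromosome 11. The one from 4053952 to 4054030 reached a -log10 p of 18.6 and a log2 fold of 6.32, the highest outside Vps37a and Vps33b. The one from 4048328 to 4048424 had 4.32, exactly 2 log2 units less. Sec14l1, Sec14l3, Sec14l4 and Sec14l5 had no peak.

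The remaining family genes had no row. They were the EARP and GARP genes Vps50, Vps51, Vps52, Vps53 and Vps54, the SM protein gene Vps45, Vps9d1, and Vps72, which encodes a chromatin protein. Sec1, whose synonyms in the table are those of a fucosyltransferase, had none either.

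**Figure D4:**
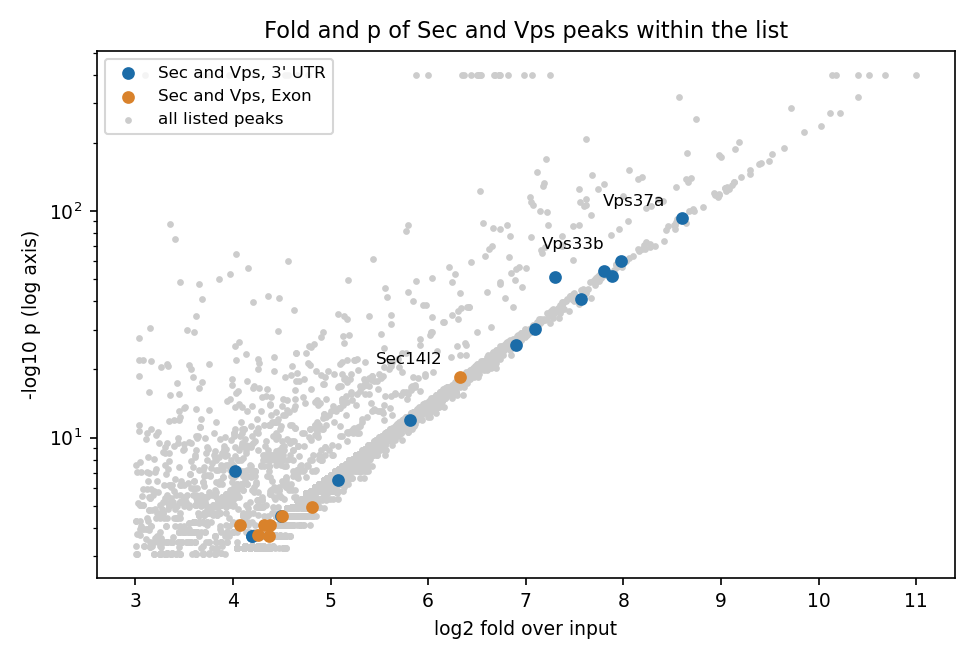
Log2 fold (horizontal axis) against -log10 p (vertical axis, logarithmic) of the 14 3' UTR peaks (blue) and 8 exon peaks (orange) on Sec and Vps genes, with all 4172 listed peaks in grey. Vps37a, Vps33b and the stronger Sec14l2 peak stand in the upper range, and 10 of the 22 peaks lie at or below the median fold of 4.60.

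By position within the mRNA, 14 of 22 Sec and Vps peaks were in the 3' UTR (63.6%, exact 95% interval 40.7 to 82.8), as were 2389 of 4150 other peaks (57.6%). Exons held 8 Sec and Vps peaks (36.4%) and 1524 other peaks (36.7%). None of the 22 was in a 5' UTR, which allows up to 15.4% by the exact interval, and other peaks had 5.71% there. No member had peaks of more than one class: 7 genes were bound in the 3' UTR alone and 5 in exons alone. For the 8 members with a single peak this was fixed beforehand, so only 4 genes could have shown more than 1 class. Among 1614 other genes 52.5% were bound in the 3' UTR alone and 23.6% in exons alone. Of these other genes 46.7% had a single peak, so the shares are not like for like. Sec genes had 7 exon peaks and 3 in the 3' UTR, and Vps genes had 1 exon peak and 11 in the 3' UTR, of which 9 lay on Vps37a and Vps33b. Without those 2 genes, left out after seeing the data and bound in the 3' UTR alone, 38.5% of the peaks were in the 3' UTR. Taking the strongest peak of each gene, 58.3% of Sec and Vps genes and 62.3% of other genes had it in the 3' UTR, so the family then lay below the others. Peaks of 1 gene are not independent, and the intervals cover counting error only.

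Peaks on Sec and Vps genes had a median width of 94.5 nt, from 30 to 145 nt, and other peaks had a median of 79 nt. With touching peaks joined the median was 104 nt for Sec and Vps genes and 97 nt for other genes. The median genomic span in GRCm38 was 24.8 kb for the 12 family genes with a peak and 28.9 kb for the 52 without one. Among the other protein-coding genes it was 29.4 kb with a peak and 16.4 kb without one.

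Stricter rules left few members. A peak above the list's median fold was found on 5 of 64 family genes (7.81%), against 3.95% of all protein-coding genes: Sec11c, Sec14l2, Sec24a, Vps33b and Vps37a. A peak above the median -log10 p of 5.68 was likewise found on 5, against 3.57%, with Sec22b in the place of Sec11c. Peaks in 2 or more separate regions were found on 4 (6.25%), namely Sec11c, Sec14l2, Vps33b and Vps37a, against 3.41%. Any gap of 1 nt or more made regions separate here: the regions of Vps33b were 2 nt apart and those of Vps37a 48 nt. The exact 95% interval was 2.59 to 17.3 for each share of 7.81% and 1.73 to 15.2 for 6.25%. Each interval included the share of all protein-coding genes under the same rule. Resting on 4 or 5 genes, these intervals are wide. Whether the family differs from that background under the stricter rules therefore cannot be told from them, and it was not tested.

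Other genes of the same routes were counted from 7 lists of 114 partner genes, of which 18 (15.8%) had a peak. The list of the translocon, the signal recognition particle and signal peptidase had 7 of 17. They were led by Srp72 (log2 fold 5.55), a protein of the particle that brings ribosomes to the channel, then the signal peptidase subunit Spcs3 (5.21), Ssr1 (4.91) of the translocon-associated complex and Tram1 (4.89). Unlike the 5 peaks of Sec61a1, Sec61g and Sec11c, which all lay in exons, 15 of the 18 peaks on these partners lay in the 3' UTR. No test was made of this difference.

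Partners of retromer and retriever had 5 of 18 genes with a peak. Snx12, a sorting nexin, reached 6.66 with 5 peaks in the 3' UTR, the highest fold of any partner. Ccdc93 (5.36), a subunit of the CCC complex that works with retriever, followed, then Washc3 (5.15) of the actin-nucleating WASH complex and Snx3 (4.32). The COPI coat of return transport had 2 of 9, Copa (4.44) and Copz1 (3.65), and the COPII partners had 2 of 13, the cargo receptors Tmed2 (4.25) and Tmed10 (3.14).

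The ESCRT partners had 1 of 21, Pdcd6ip (5.26), which encodes the ESCRT-associated protein ALIX. No ESCRT-III gene of the Chmp series had a row. The tether partners had 1 of 31, the exocyst gene Exoc4 (4.72), and of 5 genes of the endosomal PI3-kinase none had a peak. Beside the background of 7.33%, the shares of the translocon (41.2%), retromer and retriever (27.8%), COPI (22.2%) and COPII (15.4%) partners were higher. Those of COPI and COPII rested on 2 genes each. The shares of the ESCRT (4.76%) and tether (3.23%) partners rested on 1 gene each and that of the PI3-kinase on none. Counts of 2 genes or fewer do not set a list apart from the background. The lists were chosen with earlier results of these data known, and no share was tested.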

How the data were processed

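The series held 2 NAT10 immunoprecipitates and 2 inputs. The authors deposited 1 peak list, on GRCm39 per the submitters' processing notes. The authors made 1 fold of immunoprecipitate over input per peak, read here as log2 from its range. The deposited p column was taken as -log10 p, with a ceiling of 400. Both scales are unstated in the list, as is any adjustment of p. No source used here gives the aligner, the peak caller, its filters or the joining of replicates.

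Members were all symbols made of Sec or Vps and a number. Members and lists were chosen with earlier results of these data known. All members with a row are named, and of each partner list up to 4 with the highest fold. Of 1626 symbols, 1609 matched the RefSeq table of GRCm38.p6, used for names, types and spans. All 12 bound members matched by chromosome and, where a strand was at hand, 6 of 6 by strand. For the other bound members, Vps37a and Vps33b among them, no strand was at hand. Peak positions count from 1. Peaks of 1 gene and strand that touch were joined for region counts, a step tested on simulated data. Intervals are exact Clopper-Pearson. Python 3.11.15, pandas 2.3.3, SciPy 1.17.1 and matplotlib 3.10.9 were used. Alternatives changed which peaks or genes count. No sequence is shown, as no genome of the list's build was used here.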

Additional observations from a re-analysis of the deposited data

How the results depend on the processing

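No paired analysis was possible because the list holds no value per library. The 12 members with a peak became 5 with peaks above the median log2 fold and 5 with peaks above the median -log10 p. They became 4 with 2 or more separate regions, as all these rules keep fewer peaks. With only the 48 genes of the complexes named in the rule there were 9. Both of these counts take in Vps33b, through its grouping with the HOPS and CORVET genes. The 22 peaks became 12 above the median log2 fold, 17 with touching peaks joined, 16 without Vps37a and 13 without Vps37a and Vps33b. The share in the 3' UTR, 63.6%, was 83.3% above the median log2 fold. Of the 12 peaks kept there, 9 were those of Vps37a and Vps33b, and no share of other peaks is given for that rule. The share was 58.3% with 1 peak per gene (62.3% for other genes, so the direction turned). It was 50% without Vps37a and 38.5% without Vps37a and Vps33b. The median log2 fold of 4.95 was 7.20 with peaks above the median -log10 p, where other peaks had 5.29 and 9 of the Sec and Vps peaks kept were those of Vps37a and Vps33b; under the other alternatives it ran from 4.36 to 4.50. Settings that leave out Vps37a or Vps33b were chosen after seeing the data. Depth per peak is unknown, and weak binding under the list's thresholds cannot be seen.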

Other observations

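Many weaker peaks took identical values. To 6 decimals, 12 of the 22 Sec and Vps peaks (54.5%) had a log2 fold and a -log10 p both shared with at least 1 other peak in the list, and so had 67.7% of the other peaks. Sec23a and Vps37b had the same pair of values, 4.19 and 3.68, which 56 other peaks shared with each. The pair of Sec61a1 recurred on 24 other peaks, that of Vps26a on 26 and that of Vps13b on 38. The 2 Sec14l2 peaks differed by a linear ratio of 4. The 9 peaks of Vps37a and Vps33b and the Sec22b peak had pairs of their own.

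Measured between listed peaks and not between genes, the nearest peak of another gene lay 24.3 kb from those of Vps33b (on Prc1, a cytokinesis gene). For Vps26a it lay 38.8 kb away (on Srgn). For the other 10 members the nearest such peak was over 50 kb away.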
